A study of Mus musculus with 6 samples.

Results

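Of the 326 genes of the deposited table whose symbol is Zfp followed by a number, 138 had a mean of at least 2 FPKM over the 6 libraries and are described here. The table holds 14968 genes, nearly all of them protein-coding, and FPKM is a fragment number scaled to transcript length and to the mapped fragments of the library. The members were therefore chosen by name and overall level, and Zfp422 was singled out among them for its difference between the groups. The values of Zfp422 are given as a description, with no test.

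The study compared regenerating corneal epithelium of male C57BL/6 mice made diabetic (type 1) with streptozotocin (STZ, which is toxic to pancreatic beta cells) with that of age-matched control mice without it. There were 3 diabetic libraries, collected 16 weeks after STZ, and 3 control libraries. The tissue of both groups was wounded 1 day earlier and holds limbal as well as central epithelium. Each library pooled several mice, so that the p-values measure the spread between pools. The depth behind each value is unknown, because the values are not counts.

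Most Zfp genes encode C2H2 zinc finger proteins, in which a cysteine pair and a histidine pair hold a zinc ion and successive fingers read successive bases of DNA. Many carry a KRAB box, a short domain that recruits the corepressor Trim28 and, through it, the histone methyltransferase Setdb1. Some of these KRAB proteins are known as repressors of transposable elements. The KRAB genes arose by repeated duplication and lie in clusters. Others with the name bind RNA, serve as ubiquitin ligases or regulate differentiation.

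Zfp422 (ENSMUSG00000059878.12, GRCm38 chromosome 6, 116624016 to 116628999, minus strand) encodes a short zinc finger protein described in developing teeth. Its protein in the GENCODE M21 annotation has 237 residues and 5 matches to the finger motif, and no KRAB box was found. No other annotated gene overlaps it. Its promoter is shown because Zfp422 is the member that stands apart, and that of Zfp580, the member with the smallest p for a higher value in diabetic libraries, is shown beside it. Each runs from 250 bases before to 50 bases after the start given by RefSeq on GRCm38.p6, at chr6:116628652-116628951 (minus strand) and chr7:5051282-5051581 (plus strand). The capitals mark CACGC, the reverse complement of GCGTG, a core of hypoxia response elements, and the searched GC box (GGGCGG) and CCAAT box were in neither window. The window of Zfp422 lies within the gene span given by the file.
Zfp422 promoter: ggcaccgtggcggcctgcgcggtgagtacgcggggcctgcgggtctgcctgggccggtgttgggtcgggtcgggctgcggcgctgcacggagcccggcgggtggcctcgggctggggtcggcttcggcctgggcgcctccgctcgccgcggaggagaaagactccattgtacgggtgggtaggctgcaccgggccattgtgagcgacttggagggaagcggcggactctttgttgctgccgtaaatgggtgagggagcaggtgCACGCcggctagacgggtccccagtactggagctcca
Zfp580 promoter: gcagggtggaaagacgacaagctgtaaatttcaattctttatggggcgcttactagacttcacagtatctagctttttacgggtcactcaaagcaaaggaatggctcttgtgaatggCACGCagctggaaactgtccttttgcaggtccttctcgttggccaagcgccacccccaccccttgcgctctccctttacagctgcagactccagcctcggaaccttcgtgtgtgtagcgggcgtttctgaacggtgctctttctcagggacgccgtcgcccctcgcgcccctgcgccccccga
The window of Zfp422 had 71.0% G and C and 32 CpG, against medians of 60.67% and 21 over 9433 tested genes with a promoter in the same table.

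Zfp422 was at 0.645, 1.15 and 0.612 FPKM in the diabetic libraries and at 4.88, 3.79 and 5.32 FPKM in the control libraries. The highest diabetic value lay below the lowest control value, which was 3.30 times as high. The mean was 0.802 ± 0.301 FPKM in diabetic and 4.66 ± 0.789 FPKM in control libraries (SD, n = 3 each). On the log2(FPKM + 1) scale the difference of diabetic minus control was -1.65 (SE 0.16), and the control mean was 5.82 times the diabetic mean. Among the 138 members this was the difference of largest size, and among the 12149 genes tested it ranked 29. The control libraries held 85.3% of the sum of the group means, so Zfp422 passed the mean of 2 FPKM through them. In diabetic libraries it was the member with the lowest mean, and in the plot of the group means it is the point farthest below the diagonal.

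**Figure D1:**
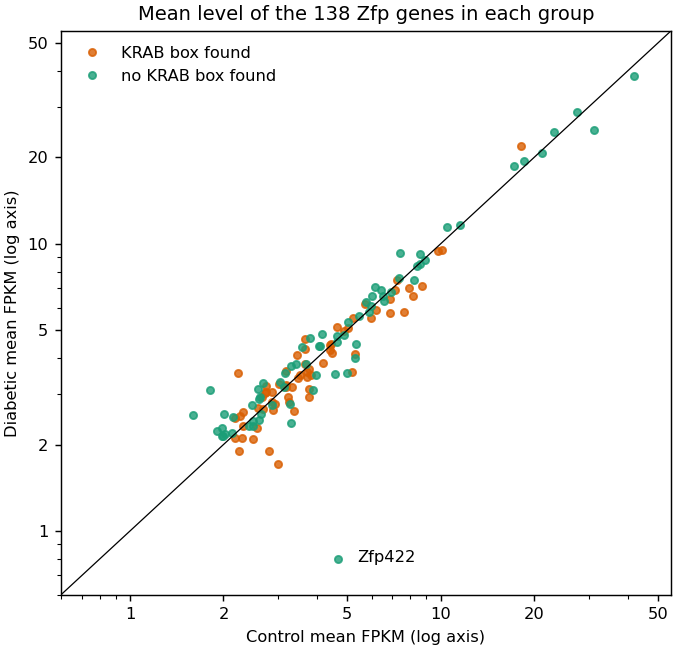
Mean FPKM of each of the 138 Zfp genes in diabetic libraries (vertical, log axis) and control libraries (horizontal, log axis), 1 point a gene, with the line of equal means. Zfp422 lies at 0.802 and 4.66 FPKM, away from the diagonal along which the other genes lie.

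The genes around Zfp422 had smaller differences than Zfp422, and the nearest had the opposite sign. Rassf4, a RAS association domain gene 4009 bases away and the nearest in the table, averaged 1.17 ± 0.272 FPKM in diabetic and 0.735 ± 0.137 FPKM in control libraries (SD, n = 3 each), with a log2 difference of 0.32 and a limma adjusted p of 0.396. Its libraries did not overlap, and the direction was opposite to that of Zfp422. Tmcc1 had a log2 difference of 0.24, Zfand4 of 0.08 and Washc2, a subunit of the WASH complex, of 0.02. March8, a ubiquitin ligase, had 0.809, 5.76 and 5.13 FPKM in diabetic libraries and 6.73, 1.40 and 4.93 FPKM in control libraries, so that the groups overlapped widely. The remaining 2 of the 7 genes within 500 kb, 8430408G22Rik and Tmem72, were near 0 and were not tested.

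The other 137 members were spread around 0. Their log2 differences ran from -0.50 to 0.67 with a median of 0.01, and 65 were below and 72 above 0. Over all 12149 tested genes the median was -0.04, and over the 7842 other genes of the same FPKM range it was -0.05. Without diabetic replicate 3 the median over all tested genes was 0.00 and that of the 137 was 0.05. With any other library left out the median over all tested genes was -0.07 to -0.03. Diabetic replicate 3 had the lowest FPKM sum, 308757 against 329197 to 331926 in the other libraries. Of the 137, 107 lay within 0.2 of 0, which is 78.1%, against 70.6% of all genes.

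**Figure D2:**
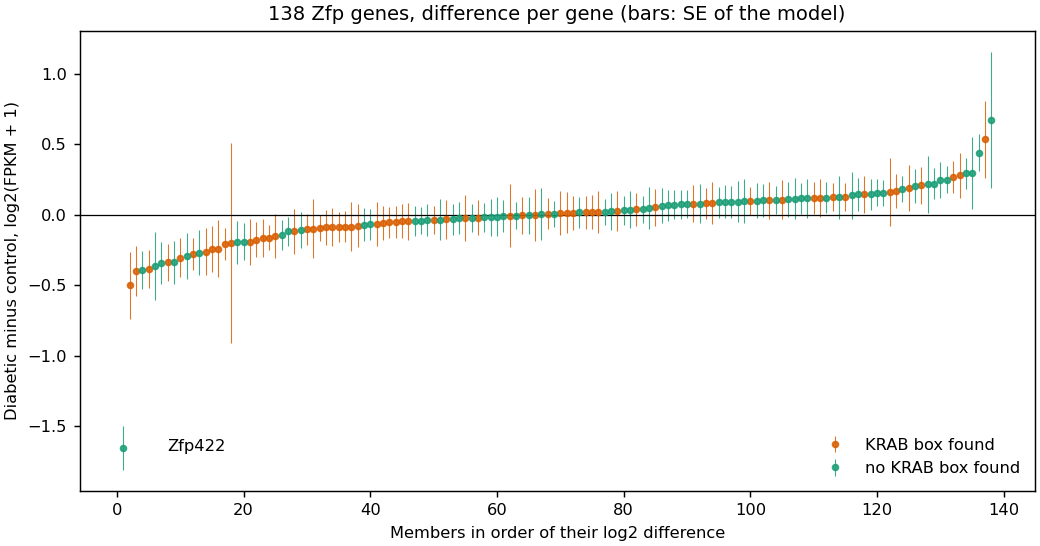
Log2 difference of diabetic minus control on the log2(FPKM + 1) scale for the 138 Zfp genes in ascending order, with the SE of the limma model and the presence of a KRAB box by colour. Zfp422 stands at -1.65, while the other 137 run from -0.50 to 0.67.

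None of the 137 passed an adjusted p of 0.05 (limma, Benjamini-Hochberg over all 12149 genes), which 0.0247% of all genes passed lower and 0.0412% higher. In the model without moderation 0 of the 12149 genes passed it. At an unadjusted p under 0.05, 5 were lower in diabetic libraries (Zfp395, Zfp971, Zfp266, Zfp958 and Zfp703) and 4 higher (Zfp580, Zfp35, Zfp768 and Zfp52). Among all genes 6.91% were lower and 4.61% higher at that p, or 11.5% in either direction, against 6.57% of the 137. With a difference of at least 1.5-fold on the log2(FPKM + 1) scale besides that p, 0 of the 137 were lower and 0 higher, against 1.26% lower and 1.23% higher among all genes. The diabetic and control libraries did not overlap for 7 members on the lower and 9 on the higher side, which is 11.7%, against 17.6% of all genes (10.9% lower and 6.68% higher). The count of 5 became 1 without diabetic replicate 2 or control replicate 1, 2 without diabetic replicate 3, 3 without control replicate 2 and 9 without control replicate 3. In the same order, the share lower among all genes was 5.76%, 3.78%, 3.69%, 4.7% and 7.39%. The count of 4 became 1 without diabetic replicate 1 or control replicate 2 and 2 without diabetic replicate 2. In that order, the share higher among all genes was 4.26%, 3.73% and 3.87%.

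Among the members with lower values, Zfp395 encodes a transcription factor whose human counterpart responds to hypoxia. Zfp395 had 3.72, 3.36 and 3.55 FPKM in diabetic libraries and 5.60, 5.51 and 3.92 FPKM in control libraries. The log2 difference was -0.39 (SE 0.13, limma adjusted p = 0.344). All diabetic values lay below the control values, with control replicate 3 close to them. Zfp971, with a KRAB box and 12 fingers, had 2.29, 1.60 and 1.82 FPKM in diabetic libraries and 3.39, 2.51 and 2.50 FPKM in control libraries. The groups of Zfp971 did not overlap, and the difference was -0.39 (SE 0.14, limma adjusted p = 0.353). Zfp703, a corepressor of the NET family, had 3.07, 4.31 and 4.59 FPKM in diabetic libraries and 6.03, 4.82 and 5.05 FPKM in control libraries, with a difference of -0.34 (SE 0.15, limma adjusted p = 0.434). The KRAB genes Zfp266 and Zfp958 had differences of -0.34 and -0.28. Zfp993, Zfp706 and Zfp948 followed at -0.40, -0.34 and -0.31, with unadjusted p of 0.0552, 0.0595 and 0.0615. Zfp706, a small protein that restrains self-renewal in mouse embryonic stem cells, was at 29.9, 25.2 and 19.3 FPKM in diabetic libraries and between 30.4 and 31.8 FPKM in control libraries, so that its spread lay in the diabetic pools.

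On the higher side, Zfp580 had 2.89, 2.10 and 2.60 FPKM in diabetic libraries and 1.94, 1.44 and 1.42 FPKM in control libraries. The difference was 0.44 (SE 0.13, limma adjusted p = 0.297), without overlap of the groups. Zfp580 overlaps Ccdc106 on the same strand, and how shared fragments were assigned is not given in the sources used here. Zfp35, with 17 fingers, had 9.18, 9.55 and 9.11 FPKM in diabetic libraries and 8.30, 7.55 and 6.42 FPKM in control libraries, with a difference of 0.29 (SE 0.11, limma adjusted p = 0.390). Zfp768 had 4.91, 4.93 and 4.30 FPKM in diabetic libraries and 3.71, 3.93 and 3.76 FPKM in control libraries, with a difference of 0.25 (limma adjusted p = 0.396). In both Zfp35 and Zfp768 every diabetic library lay above every control library. Zfp52, the KRAB gene with the highest level, had 20.9, 23.0 and 22.0 FPKM in diabetic libraries and 20.7, 17.2 and 16.6 FPKM in control libraries, with a difference of 0.27 (limma adjusted p = 0.428). Zfp335, a component of a nuclear receptor coregulator complex, Zfp592, Zfp263 and Zfp771 had differences of 0.22, 0.25, 0.53 and 0.18, with unadjusted p between 0.0830 and 0.0916.

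Members with listed roles outside KRAB silencing had differences between -0.34 (Zfp703) and 0.25 (Zfp592). The 5 members with the highest level were Zfp185, a LIM domain protein of the actin cytoskeleton, at 38.6 ± 2.92 FPKM in diabetic and 41.9 ± 5.94 FPKM in control libraries (SD, n = 3 each), Zfp207, a spindle assembly protein, Zfp706, Zfp750, a factor of terminal epidermal differentiation, and Zfp91, a ubiquitin ligase. Zfp750 was at 24.9, 24.5 and 24.3 FPKM in diabetic libraries and at 23.6, 26.1 and 19.8 FPKM in control libraries. The log2 differences of Zfp185, Zfp207, Zfp750 and Zfp91 were -0.11, 0.08, 0.09 and -0.02, and all 4 overlapped between the groups. Of 9 members that act on RNA or ribosomes, 8 were above 0, against 72 of the 137 members and 4735 of all 12149 genes, with a median of 0.09, and 0 of the 9 were at an unadjusted p under 0.05. They include Zfp36, which speeds the decay of mRNAs with AU-rich elements, at 19.5 ± 1.18 FPKM in diabetic and 18.6 ± 1.92 FPKM in control libraries, and Zfp598, a ubiquitin ligase of collided ribosomes, at 11.5 ± 1.46 FPKM in diabetic and 10.5 ± 0.172 FPKM in control libraries. Of 8 regulators of development, among them Zfp281, Zfp148 and Zfp467, 4 were below and 4 above 0, and Zfp703 was the only one of the 8 at an unadjusted p under 0.05. Of 5 general chromatin and promoter factors, Zfp592 and Zfp687 had differences of 0.25 and -0.04, Zfp335 of 0.22, Zfp410, an activator of Chd4, of 0.07, and Zfp143, which binds promoters of many housekeeping genes, of -0.04, and 0 of the 5 were at an unadjusted p under 0.05. Among all genes 11.5% were at that p in either direction, beside 0 of 9, 1 of 8 and 0 of 5 in these small groups of members.

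**Figure D3:**
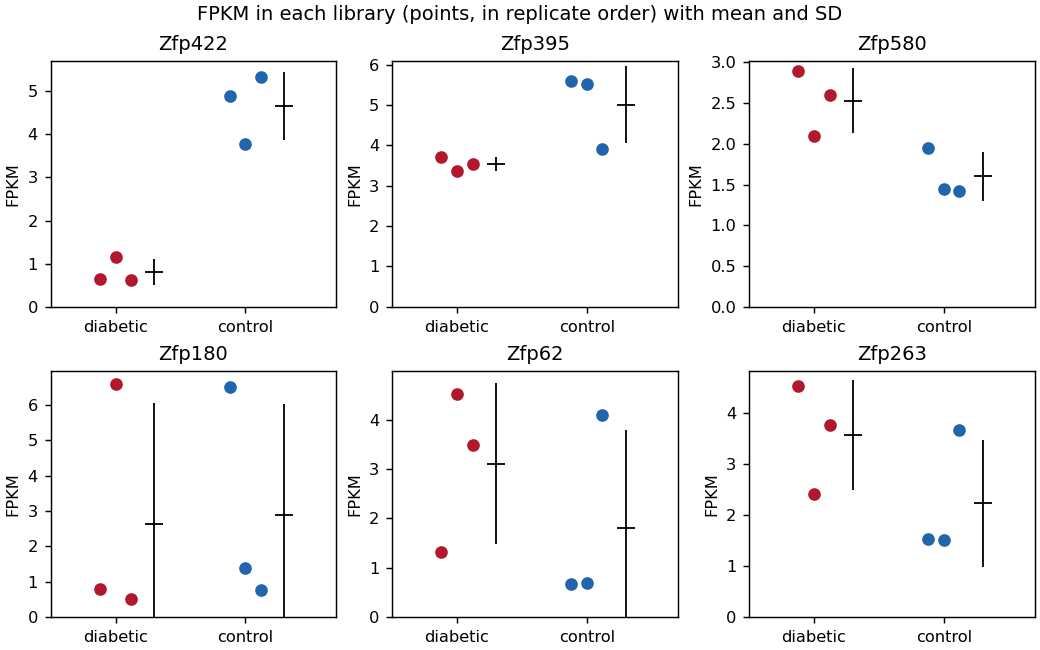
FPKM of 6 Zfp genes in the 3 diabetic and 3 control libraries (points), with the mean and SD at the right of each group. The SD bars of Zfp180 and Zfp62 are cut at 0. Zfp422 separates the groups, with at most 1.15 FPKM in diabetic and at least 3.79 FPKM in control libraries, Zfp395 and Zfp580 do so with a smaller gap, and Zfp180, Zfp62 and Zfp263 vary within each group.

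The widest spread within a group was that of Zfp180 and Zfp62. Zfp180, a KRAB gene, had 0.790, 6.59 and 0.519 FPKM in diabetic libraries and 6.50, 1.40 and 0.753 FPKM in control libraries. One library of each group was thus high, and the highest was 12.7 times the lowest among the diabetic libraries. Zfp62, with 25 fingers the most of any member, had 1.32, 4.51 and 3.48 FPKM in diabetic libraries and 0.659, 0.678 and 4.09 FPKM in control libraries. The log2 differences were -0.20 (SE 0.71) for Zfp180 and 0.67 (SE 0.48) for Zfp62, whose difference was the largest among the 137 and had a limma adjusted p of 0.625. Zfp263 had 4.52, 2.41 and 3.75 FPKM in diabetic libraries and 3.66 FPKM in control replicate 3, with at most 1.53 FPKM in the other control libraries. The median ratio of the highest to the lowest library of a group was 1.37 over the 137 members and 1.34 over the other genes of the same range. A ratio of at least 2 between libraries of 1 group was seen in 8 of 137 members (5.84%), against 678 of 7842 other genes of the same range (8.65%). Only Zfp180 and Zfp62 of the 137 reached the factor of 3.30 that separates the groups of Zfp422, within a group. None of the 137 had its groups apart by that factor, and 6 of the 7842 other genes did. The largest such gap among the 137 was 1.13. These ratios were compared after the values had been seen.

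A KRAB box was found in 67 of the 138 proteins. The 67 had a median of 11 fingers, against 6 in the other 71, and 6 members matched the finger motif nowhere. Among the KRAB members 39 were below and 28 above 0, with a median of -0.03, and 3 were lower and 1 higher at an unadjusted p under 0.05. Among the 70 others without Zfp422, 26 were below and 44 above 0, with a median of 0.06, and 2 were lower and 3 higher at that p. Over all genes 7414 of 12149 were below 0, and 6.91% were lower and 4.61% higher at that p. The KRAB median took the opposite sign (0.00 to 0.02) with TPM, quantile or median-of-ratios scaling, and also without diabetic replicate 1 (0.00), diabetic replicate 3 (0.02) or control replicate 1 (0.03), while that of the others was above 0 in every setting run. The KRAB median minus the other median was -0.09, and without a library it ran from -0.01 (without diabetic replicate 1) to -0.13 (without diabetic replicate 2). Over the libraries the median deviation of the KRAB members from their mean was -0.03, 0.09 and -0.09 in the diabetic and 0.14, 0.00 and -0.11 in the control libraries. The spread within each group thus exceeded the difference between the groups. In control replicate 3 the members without a KRAB box were also low, at -0.07, while the other genes of the same range were at 0.01, and the quartiles of the sets overlapped in every library.

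**Figure D4:**
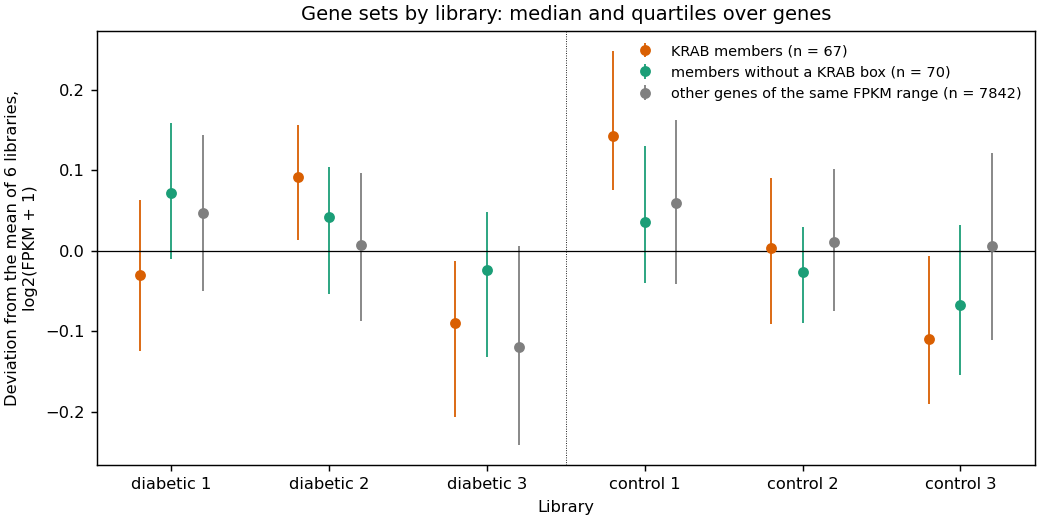
Median deviation (points) with quartiles (bars) of each library from the mean of 6 libraries on the log2(FPKM + 1) scale, for 67 KRAB members, 70 members without a KRAB box and 7842 other genes of the same FPKM range. The KRAB members are at 0.14 in control replicate 1 and at -0.11 in control replicate 3.

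The partners of KRAB proteins, a list of corepressors and heterochromatin proteins, held no gene past the adjusted threshold. Trim28, the corepressor itself, was at 22.9 ± 4.30 FPKM in diabetic and 22.2 ± 2.17 FPKM in control libraries (SD, n = 3 each), and Setdb1 at 3.17 ± 0.587 FPKM in diabetic and 3.29 ± 0.307 FPKM in control libraries. Of the 35 partners tested, 0 were lower and 0 higher at an unadjusted p under 0.05, against 11.5% of all genes in either direction, and the median log2 difference was -0.05. For 5 of the 35 the libraries did not overlap (14.3%, against 17.6% of all genes). The smallest p were those of Atrx (-0.32) and Mbd3 (-0.23) on the lower side and 2810474O19Rik (0.27) and Daxx (0.21) on the higher side. The log2 differences of the 35 ran from -0.32 to 0.38.

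The members were on 20 chromosomes, with 28 on chromosome 7 and 22 on chromosome 17, of which 19 had a KRAB box. With gaps of at most 100 kb, 31 members formed 8 clusters of 3 or more, and 22 of these 31 had a KRAB box. The cluster of 6 KRAB genes on chromosome 17 held both directions. In it Zfp54 had 1.76, 1.95 and 1.43 FPKM in diabetic libraries and 1.74, 2.72 and 4.51 FPKM in control libraries, a difference of -0.50 that rested on the control libraries 2 and 3, while Zfp52 and Zfp948, next to each other, were at 0.27 and -0.31. All 5 genes of the chromosome 7 cluster from Zfp553 to Zfp764 were above 0, with a range of 0.02 to 0.25. The 9 members on chromosome 4 had a median of -0.19, among them Zfp991, Zfp992 and Zfp993 with differences of -0.24, -0.19 and -0.40. The groups of these 3 genes overlapped, and control replicate 3 was the lowest control library in each. Zfp993 had 3.57, 3.53 and 3.66 FPKM in diabetic libraries and 6.69, 5.22 and 3.63 FPKM in control libraries. Without control replicate 1 its difference was -0.23. Clustered KRAB genes are close copies of each other, and the assignment of fragments between copies is not given in the sources used here, so that their values are uncertain.

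**Figure D5:**
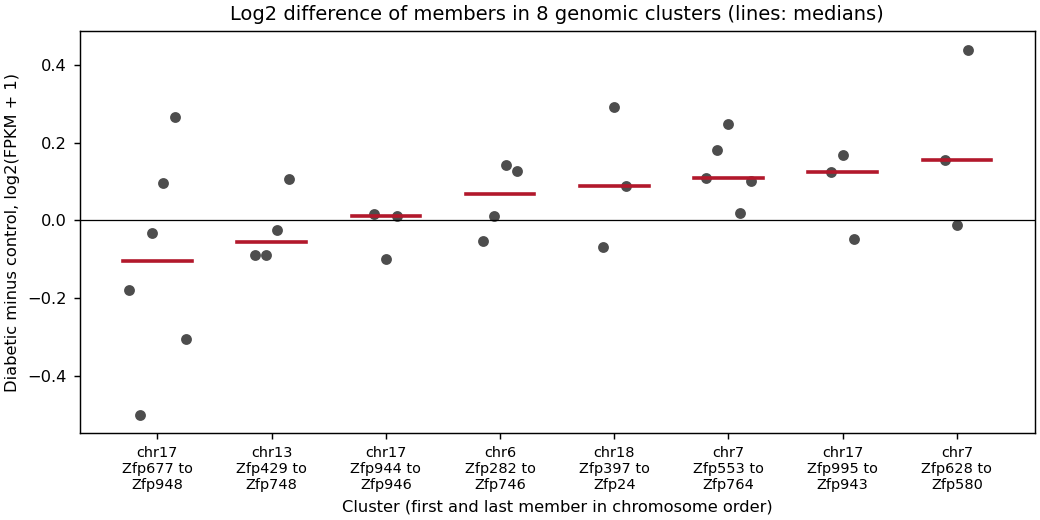
Log2 difference of diabetic minus control on the log2(FPKM + 1) scale of the 31 Zfp genes in 8 clusters (points in chromosome order, lines at the medians), labelled by chromosome and by first and last gene. Medians run from -0.11 in the cluster from Zfp677 to Zfp948 to 0.16 in the cluster from Zfp628 to Zfp580.

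Across the 137 members the log2 difference was nearly unrelated to level (Pearson r = -0.06), number of fingers (0.06) and exon length (0.10). These values describe genes of the same 6 libraries, which are not independent replicates. Promoters were found for 117 of the 138 members. The median window had 52.17% G and C and 11 CpG in the 60 KRAB members with a promoter, and 62.67% and 21 in the 57 others. Of 13 motifs searched on both strands after the values had been seen, GGGCGG was in 55.6% of the members' windows, against 65.0% of all windows, GCGTG in 40.2% against 51.7%, the other hypoxia core ACGTG in 29.9% against 25.5%, CCAAT in 47.0% against 39.1%, TATAAA in 5.13% against 7.08%, TTTCCGG in 14.5% against 6.94% and TGCGCA in 7.69% against 14.6%. Of the remaining motifs, CCATNTT was in 20.5% against 15.2%, GCCAT in 45.3% against 38.4%, CGGAAG in 35.0% against 32.6%, AAGATGG in 6.84% against 7.31%, GGCCATTGT in 0.855% against 0.212% and a longer palindrome in 0.855% against 1.03%. The share of GGCCATTGT among the members is 1 window, that of Zfp422 itself.

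The 134 tested Zfp genes under the mean of 2 FPKM had a median of -0.02, with 2 lower (Zfp931 and Zfp383) and 2 higher (Zfp12 and Zfp398) at an unadjusted p under 0.05. Just inside the threshold were Zfp672, Zfp580 and Zfp787 with means of 2.07 FPKM each, and just outside it Zfp866 with 1.96, Zfp46 with 1.96 and Zfp707 with 1.98 FPKM. Zfp46 also varied within groups, with 0.457, 5.26 and 0.198 FPKM in diabetic libraries and 0.629, 0.472 and 4.73 FPKM in control libraries. Among zinc finger genes outside the rule, 1 of 22 Zfp symbols with a letter suffix was lower and 0 higher at that p. That gene was Zfp36l1, an mRNA decay factor like Zfp36, with 30.5, 32.2 and 22.3 FPKM in diabetic libraries and 38.0, 40.1 and 46.4 FPKM in control libraries (log2 difference -0.55, limma adjusted p = 0.286). Of 36 Zbtb genes 3 were lower and 2 higher (13.9%), and of 14 SCAN genes 0 were either, against 6.91% lower and 4.61% higher among all genes. Of 20 symbols of the Klf and Sp pattern 1 was lower and 4 were higher (5 of 20, against 11.5% of all genes). The pattern also takes the symbols Sp100, Sp110 and Sp140, which are no Sp factors, so these counts are not of Klf and Sp factors alone. Sp100, a nuclear body protein, was among the 4 higher. Klf6, also higher, was at 51.9 ± 7.30 FPKM in diabetic and 35.2 ± 5.61 FPKM in control libraries, with a limma adjusted p of 0.275. Klf7, the 1 that was lower, was at 6.03 ± 1.25 FPKM in diabetic and 8.06 ± 1.04 FPKM in control libraries (limma adjusted p = 0.422).

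The 12 corneal epithelium genes of the list summed to 14931 to 17482 FPKM in diabetic and 15162 to 16056 FPKM in control libraries. Of their log2 differences 8 were below and 4 above 0. Krt14 was at -0.26 and Krt12 at 0.52, each without overlap of the groups (limma adjusted p of 0.264 and 0.306). Krt5 was at -0.05 and Krt15 at 0.39, both with overlap. Of the summed levels of 7 other cell type lists, 4 did not overlap between the groups. The 18 neutrophil genes summed to 1201 to 1657 FPKM in diabetic and 619 to 1033 FPKM in control libraries, and all 18 had log2 differences above 0. The 14 lens genes summed to 64.7 to 353 FPKM in diabetic and 41.5 to 48.4 FPKM in control libraries, with 13 above 0. The 7 erythrocyte genes in the table summed to 9.90 to 22.3 FPKM in diabetic and 41.3 to 107 FPKM in control libraries, and 4 of the 5 tested were below 0. The 11 stromal genes summed to 286 to 405 FPKM in diabetic and 417 to 448 FPKM in control libraries. The sums of the other lists overlapped, at 110 to 170 FPKM in diabetic and 105 to 121 FPKM in control libraries for monocyte and macrophage genes, 1989 to 2463 FPKM in diabetic and 1873 to 2200 FPKM in control libraries for conjunctival and goblet cell genes, and 1.51 to 2.91 FPKM in diabetic and 0.987 to 1.92 FPKM in control libraries for Schwann cell and melanocyte genes. Of 12 tested monocyte and macrophage genes 2 were lower and 2 higher without overlap of the groups (33.3%). Of 6 tested conjunctival and goblet cell genes 1 was lower and 3 higher in this way (66.7%), against 17.6% of all genes. No listed gene in the table was at 0 in all libraries. The table held 6 of 9 listed conjunctival and goblet cell genes, 18 of 19 neutrophil genes, 7 of 8 erythrocyte genes and 7 of 8 Schwann cell and melanocyte genes. The part of these cell types in the values of Zfp422 and the other members was not tested. In pooled tissue fewer cells of a type and less RNA per cell cannot be told apart.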

How the data were processed

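RNA from 6 pooled libraries of mouse regenerating corneal epithelium was analysed. Per the labels and the submitters' processing notes, libraries were made with a stranded KAPA kit and sequenced on a NovaSeq instrument, and FastQC, cutadapt, HISAT2, StringTie and the build GRCm38 were named. Versions and settings are not given in the sources used here. The deposited FPKM values were computed by the authors scaled to transcript length and sequenced fragments. Columns were assigned to samples by title. The table was used as deposited, and 0 of its per-sample columns were left out.

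Genes with a mean of at least 0.5 FPKM in 1 or both groups (12149) entered a two-sided limma fit (version 3.58.1, R 4.3.3) of log2(FPKM + 1) on group, using moderated variances with an intensity trend and p-values adjusted over all genes by Benjamini-Hochberg. Fold changes on this scale understate those of low genes. With 3 against 3 libraries the smallest p of an exact permutation test is 0.1, and such a test was not used. The script was tested on simulated data. Whole reads were sought in the values of single-exon genes and not recovered: with the best step size, chosen from a grid, 23.5% to 40.6% of 31 to 42 values lay within 2% of a step of a whole number. The members and gene lists were chosen with earlier results of these data known. The rule for naming took Zfp422, the 8 members of each direction with the smallest p and the 5 with the highest level. It also took the 3 just inside and outside the threshold and the 5 with the largest spread within groups. Further, it took members with a listed role, 2 genes of each direction from other lists and genes within 500 kb of Zfp422. Not all genes of this rule are named. Genes outside this rule, namely Zfp54, the chromosome 4 genes, the first and last genes of clusters, Trim28, Setdb1 and Zfp931, Zfp383, Zfp12 and Zfp398, were chosen after their values were seen.

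All 138 member identifiers were found in GENCODE M21, 125 with identical start and end. Fingers were counted in the translated longest complete coding sequence as C, 2 to 4 residues, C, 12 residues, H, 3 to 5 residues, H. A KRAB box was called at a BLOSUM62 score of at least 30 against a 37-residue consensus from 120 Zfp proteins (Biopython 1.88). This call followed 2 earlier ways of calling, a strict pattern that missed known KRAB genes and a score against another consensus, and the cutoff was set with the scores in view. The cutoff of 60, the medians of KRAB members under each setting, the comparison of ratios within groups and the choice of promoters and motifs were added after seeing the data. Alternatives were other pseudocounts, filters, scalings, models and member thresholds, and leaving out each library. The scores of the 67 called began at 41 and those of the others ended at 26, and the cutoff of 60 called 64. Promoter sequences are from RefSeq (GRCm38.p6).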

Additional observations from a re-analysis of the deposited data

How the results depend on the processing

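Among the other 137 members, 0 passed the adjusted threshold under every alternative run. The count lower at an unadjusted p under 0.05 (5 as reported) was 3 without a filter, 3 with rescaling to TPM, 1 in the ordinary linear model, 1 for members with a mean of at least 5 FPKM, and 1 to 9 when 1 library was left out. The share lower among all genes was 6.91% as reported, 6.55% without a filter, 6.11% as TPM and 5.46% in the ordinary linear model. It ran from 3.69% to 10.8% when 1 library was left out. The count higher (4) was 9 with quantile normalization, 9 with median-of-ratios scaling, 2 for members with a mean of at least 5 FPKM, and 1 to 3 when 1 library was left out. The share higher among all genes was 4.61% as reported, 6.09% with quantile normalization and 6.35% with median-of-ratios scaling. It ran from 3.73% to 4.46% when 1 library was left out. The cause of these changes was not tested. Over all genes median-of-ratios scaling gave 742 lower and 772 higher, against 839 and 560 as reported, with a median of 0.00, against -0.04 as reported. The members' median ran from -0.04 to 0.07 when 1 library was left out, so its sign is not stable. Zfp422 was at -2.44 with a pseudocount of 0.1, -2.00 with 0.5 and -2.13 as TPM, and at -1.79 to -1.57 when 1 library was left out. Because its groups do not overlap, another pseudocount or a library left out could not reverse its direction. The unchanged direction is therefore no support for the difference. With a mean of at least 1 FPKM required in both groups Zfp422 was removed, so that this setting gave it no value.

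The main model did not use the replicate numbers as pairs. The study states that its screening used paired samples and does not define the pairs. Deviations of diabetic and control libraries with the same number correlated at -0.20, 0.06 and -0.09, and not every library correlated best with its own number. With 3 libraries a group, these correlations cannot decide whether the samples were paired. With the replicate block 3 members were lower and 3 higher at an unadjusted p under 0.05, against 6.12% lower and 4.17% higher among all genes.

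Members near 0 changed sign. Under TPM, quantile and median-of-ratios scaling, in this order, Zfp91 was at 0.0151, 0.0361 and 0.0316, Zfp148 at 0.0338, 0.0314 and 0.0450, and Zfp106 at 0.0166, 0.0204 and 0.0314. Zfp143 was at 0.000731 under quantile and 0.0136 under median-of-ratios scaling. When 1 library was left out, log2 differences crossed 0 for Zfp207 from -0.0597 to 0.16, Zfp750 from -0.0138 to 0.178, Zfp91 from -0.0744 to 0.0357, Zfp180 from -0.938 to 0.419, Zfp637 from -0.0221 to 0.523, Zfp830 from -0.0395 to 0.227, Zfp503 from -0.176 to 0.00967, Zfp219 from -0.000358 to 0.187, Zfp622 from -0.00799 to 0.199, Zfp148 from -0.083 to 0.115, Zfp106 from -0.0517 to 0.0432, Zfp217 from -0.0223 to 0.0472, Zfp593 from -0.00821 to 0.207, Zfp326 from -0.0323 to 0.175, Zfp384 from -0.0243 to 0.0814, Zfp110 from -0.114 to 0.018, Zfp143 from -0.147 to 0.0784, Zfp330 from -0.0249 to 0.0373 and Zfp809 from -0.113 to 0.132. The depth behind FPKM is unknown.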
